A study of Mus musculus with 8 samples.

Results

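The Lin28 and let-7 axis was examined in mouse pluripotent lines through 9 genes: Lin28a, Lin28b, Trim71, Zcchc11, Dis3l2, Hmga2, Igf2bp1, Igf2bp2 and Igf2bp3. They were picked by name, as factors that act on let-7 or as known let-7 targets, with their expression in these libraries already seen, and they are 9 of 22878 gene rows. Their values below are therefore a description. No p-value of a member is given, and calls of members are only counted, beside the share of all genes called.

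RNA was sequenced in 8 libraries from 5 lines, the embryonic stem cell (ESC) line R1 and 4 secondary induced pluripotent stem cell (iPSC) lines, called 16-6, 32, S8 and T2. R1, 16-6 and 32 had 2 libraries each, and S8 and T2 had 1 each. The study's read summary lists several times as many reads for S8 and T2 as for the other libraries, with a smaller share mapped uniquely. In every comparison of S8 or T2 with R1, 16-6 or 32, line and sequencing therefore cannot be told apart. 16-6 came from hematopoietic cells, 32 from progenitors of adipocytes, S8 from epidermis and T2 from the lining of the stomach. The donors were mice made wholly from an iPSC line that responds to doxycycline. Those cells carried inducible Oct4, Sox2, c-Myc and Klf4, doxycycline was withdrawn before the colonies were picked, and R1 carries no such history. Each origin is represented by 1 line, so origin and line cannot be told apart. All lines, R1 included, were grown with LIF and serum on mitotically inactive mouse embryonic fibroblasts. The labels give the tissue as embryo and describe frozen embryos, whereas the methods describe cell pellets. The question was how far the iPSC lines match the ESC line in expression.

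Lin28a and Lin28b are RNA-binding proteins that keep let-7 precursors from maturing. With Lin28a bound, the terminal uridylyl transferase Zcchc11 (also called TUT4) adds a uridine tail to the precursor, and the nuclease Dis3l2 degrades the tailed RNA. Mature let-7 in turn pairs through its seed with the 3′ UTR of target mRNAs and lowers their output, and Lin28a, Lin28b, Trim71, Hmga2 and the Igf2bp genes are known targets. In pluripotent cells the Lin28 proteins are abundant and mature let-7 is scarce, and the balance tips towards let-7 on differentiation.

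The mature let-7 family and its matches in the members are shown first, because they tell which members carry a match to the seed. From RefSeq (GRCm38.p6), 12 mature names were compared: the let-7 names except those ending in -3p, miR-98-5p and miR-202-3p. Of these, 10 shared the seed of let-7a at bases 2 to 8. Over all mature names in the same source, 11 carried this seed. Among those compared, 2 did not. let-7j and miR-202-3p had another seed. 4 of those 10 are printed 5′ to 3′, with the seed in capitals.
mmu-let-7a-5p: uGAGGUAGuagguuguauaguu
mmu-let-7e-5p: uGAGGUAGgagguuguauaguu
mmu-let-7i-5p: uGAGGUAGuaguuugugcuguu
mmu-miR-98-5p: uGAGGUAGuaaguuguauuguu

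The reverse complement of this seed, CTACCTC, was searched on the sense strand of 3′ UTRs in the transcript with the longest coding region of each gene (GENCODE vM1, mm9). The match of the miR-125 seed, CTCAGGG, was searched in the same way, since miR-125 is the mammalian relative of lin-4, which targets lin-28 in worms. A let-7 match can overlap a miR-125 match by the letters CTC, and a match is a string of letters, not a proven site. A let-7 match was found in 7 of the 9 members. Lin28b, Hmga2 and Igf2bp1 had 4 each, Lin28a and Trim71 had 2 each, Igf2bp2 and Igf2bp3 had 1 each, and Zcchc11 and Dis3l2 had 0. Among 19485 genes with a 3′ UTR, 7.4% had at least 1, 0.78% at least 2 and 0.041% (8 genes) at least 4. Since several members were picked as known let-7 targets, these counts are no independent finding. Long UTRs hold more matches by their length. The UTR of Igf2bp1 is 6337 bases, and 35.4% of 280 genes with a UTR of 0.8 to 1.25 times that length had at least 1 match. The corresponding share was 25.1% for Lin28b (4445 bases), 17.3% for Hmga2 (3014 bases), 15.5% for Lin28a (2775 bases) and 10.2% for Trim71 (1370 bases). A miR-125 match stood once in Lin28a, Lin28b, Trim71, Dis3l2 and Igf2bp3, against 11.0% of all genes with at least 1. Among genes with a UTR of like length the share was 25.4% for Lin28a, 33.3% for Lin28b, 15.4% for Trim71, 4.6% for Dis3l2 and 21.2% for Igf2bp3.

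The windows of 22 bases below end 1 base after the seed match, which is in capitals, and all lie in the 3′ UTR of the named gene (mm9, minus strand, printed in the direction of the mRNA). They are shown because they differ at the base after the match, where an adenine is known to favour targeting by microRNAs.
Lin28a let-7 match 1, chr4:133561104-133561125: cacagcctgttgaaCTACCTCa
Lin28a let-7 match 2, chr4:133560466-133560487: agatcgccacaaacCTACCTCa
Lin28b let-7 match 1, chr10:45100828-45100849: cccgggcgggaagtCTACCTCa
Lin28b let-7 match 2, chr10:45098454-45098475: atacttgttagtaaCTACCTCt
Trim71 let-7 match 1, chr9:114421590-114421611: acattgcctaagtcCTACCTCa
Trim71 let-7 match 2, chr9:114421494-114421515: gtgataatttctatCTACCTCa
Hmga2 let-7 match 1, chr10:119801280-119801301: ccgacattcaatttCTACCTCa
Hmga2 let-7 match 2, chr10:119800043-119800064: cccactcctcaataCTACCTCt
Igf2bp1 let-7 match 1, chr11:95823092-95823113: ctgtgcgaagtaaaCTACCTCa
Igf2bp2 let-7 match 1, chr16:22059546-22059567: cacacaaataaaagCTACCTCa
Igf2bp3 let-7 match 1, chr6:49036786-49036807: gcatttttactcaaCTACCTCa
Lin28a miR-125 match, chr4:133561216-133561237: ggtacatgagcaatCTCAGGGa
Trim71 miR-125 match, chr9:114421677-114421698: aaagaagaaatcgtCTCAGGGa

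An adenine followed the first let-7 match of every member that had one. In Lin28b and Hmga2 it followed the first match only, 36 and 58 bases into the UTR, and in Igf2bp1 it followed the first 3 of 4. In Trim71 the miR-125 match at base 79 and the let-7 matches at bases 166 and 262 lay close together near the stop codon. In Lin28a the miR-125 match at base 797 preceded the let-7 match at base 909.

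**Figure D1:**
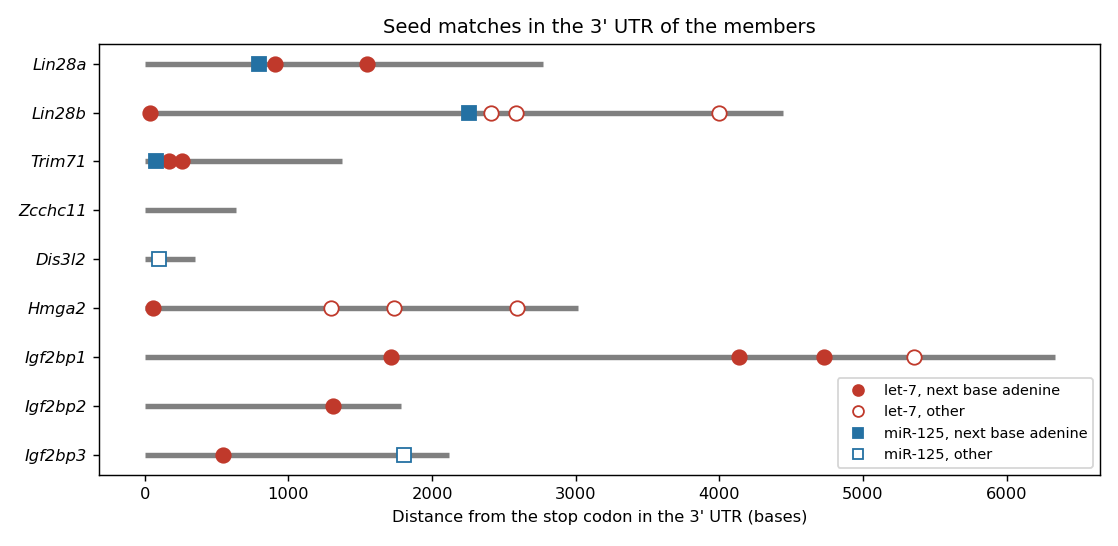
Positions of let-7 (circles) and miR-125 (squares) seed matches along the 3′ UTR of each member, with the distance from the stop codon in bases on the x axis and filled symbols where adenine follows the match. Lin28b, Hmga2 and Igf2bp1 each carry 4 let-7 matches, and Zcchc11 and Dis3l2 carry 0.

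Expression is given as FPKM, fragments scaled to transcript length and library size, as deposited and then divided by 1 constant for all libraries. All 72 values of the members had the status OK. Cufflinks gave a lower and an upper confidence limit to each value, and the fragments behind a value were estimated from them. They came to between 15.5 and 16.7 × 1000000 per library, S8 and T2 included, and so do not follow the larger read numbers of these libraries. They describe the deposited limits and not the depth of sequencing. For the members they came to between 171 for Dis3l2 in the second 16-6 library and 20791 for Igf2bp1. The 8 pluripotency markers (Pou5f1, Sox2, Nanog, Esrrb, Zfp42, Klf4, Tdgf1, Dppa5a) were above 0 in every library. They summed to 3744.5 and 4096.0 FPKM in R1, 2301.3 and 2370.4 in 16-6, 4710.5 and 3899.8 in 32, 4183.9 in S8 and 2958.9 in T2. Against R1, 2 of the 8 were called lower in 16-6, 1 in 32, 3 in S8 and 3 in T2, by the rule given below, and none was called higher. Of all tested genes, 7.11% were called in 16-6, 9.77% in 32, 16.7% in S8 and 10.5% in T2. Zfp42 (Rex1), a marker of naive pluripotency, had 541 and 544 FPKM in R1, 141 and 144 in 16-6, 258 and 277 in 32, 119 in S8 and 92.9 in T2. Esrrb had 184 and 175 FPKM in R1, 86.4 and 87.1 in 16-6, 172 and 178 in 32, 60.2 in S8 and 53.4 in T2. In 16-6 all 8 differences from R1 were below 0, with a median of −0.73. Not all markers fell in the other lines. There, 4 differences were above 0 and 4 below in 32 and likewise in S8, and 1 was above and 7 below in T2. Pou5f1 had 605 and 636 FPKM in R1, 1020 in S8 and 730 in T2. The part of these states in the members' levels was not tested. The 12 fibroblast markers (Col1a1, Col1a2, Col3a1, Dcn, Lum, Postn, Thy1, Pdgfrb, Twist2, Prrx1, Acta2, Tagln) were above 0 in every library as well. They summed to 3065.6 and 3048.0 FPKM in 16-6, 1000.8 and 1026.8 in R1, 874.4 in T2, 621.1 in S8, and 241.9 and 232.0 in 32. In such bulk libraries, fewer cells of a type and less RNA per cell cannot be told apart. The primed epiblast markers (Fgf5, Otx2, Pou3f1, Dnmt3b, Sall2, Fgf15) summed to 240.6 to 296.9 FPKM in R1, 16-6 and 32, to 754.6 in S8 and to 698.5 in T2. Dnmt3b alone had 502 FPKM of the S8 sum and 490 of the T2 sum, against 137 and 156 in R1. In S8 and in T2, 5 of the 6 were above R1. Otx2 was below, at 50.1 FPKM in S8 and 45.0 in T2 against 62.1 and 65.3 in R1. Fgf5 was higher in 32 (22.2 and 24.0) than in S8 (13.2). Primitive endoderm markers summed to 4.5 to 17.3 FPKM.

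Lin28a (chr4:133559245-133574731), the let-7 blocker that is the main Lin28 gene of mouse ESCs, was the most abundant member in every library. Its level was 168.3 and 185.3 FPKM in R1, 231.7 and 221.0 in 16-6, 298.7 and 285.2 in 32, 387.4 in S8 and 366.7 in T2. Every iPSC library exceeded both R1 libraries, the lines did not overlap, and the order S8, T2, 32, 16-6, R1 held also for the confidence limits. S8 was 2.19 times the R1 mean of 176.8 ± 12.0 (SD, n = 2). On the scale of log2(FPKM + 1), the difference from R1 was 0.36 (SE 0.062) in 16-6, 0.72 (SE 0.062) in 32, 1.13 (SE 0.076) in S8 and 1.05 (SE 0.076) in T2. Both of the latter were within reach of the 2-fold limit: the S8 difference was 0.75 after quantile normalization, where S8 was also below T2 (S8 against T2, −0.23), and that of T2 was 0.98 without R1 replicate 1. By qPCR, another measure than the FPKM given here, the paper reported no difference in Lin28 between ESCs and iPSCs.

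Lin28b (chr10:45096425-45190007), the paralog that acts mainly in the nucleus, was lower than Lin28a and was highest in T2. Its level was 17.8 and 18.0 FPKM in R1, 20.9 and 21.2 in 16-6, 19.0 and 22.1 in 32, 23.0 in S8 and 41.7 in T2. The T2 library was 1.82 times S8, its nearest neighbour, with confidence limits of 40.0 to 43.4 against 21.7 to 24.2. The other lines were close to each other: 16-6 and 32 overlapped, and so did the confidence limits of S8 with 16-6 and of 32 with R1. The log2 difference of T2 from R1 was 1.18 (SE 0.09) and those of the other iPSC lines were 0.19 to 0.34. With an adjustment for transcript length and GC content, S8 was at 0.90 and T2 at 1.33, and the difference of S8 from T2 went from −0.83 to −0.44, so that T2 stood less apart. T2 has 1 library, so its own spread is unknown. The ratio of Lin28a to Lin28b was 8.79 in T2 and 16.9 in S8, although the Lin28a levels of these lines differed by only 1.06 times. It was 9.46 and 10.3 in R1, 11.1 and 10.4 in 16-6, and 15.7 and 12.9 in 32.

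Trim71 (chr9:114420391-114473487), a RING and NHL repeat protein named lin-41 in worms and an early-known let-7 target there, was low in S8. Its level was 91.7 and 87.8 FPKM in R1, 77.4 and 77.3 in 16-6, 101.7 and 99.5 in 32, 32.6 in S8 and 76.4 in T2. The 32 libraries were above and the 16-6 libraries below both R1 libraries, and the confidence limits of 16-6 and T2 overlapped. S8 was well below all other libraries, at a log2 difference of −1.43 (SE 0.046) from R1 and −1.20 (SE 0.053) from T2.

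**Figure D2:**
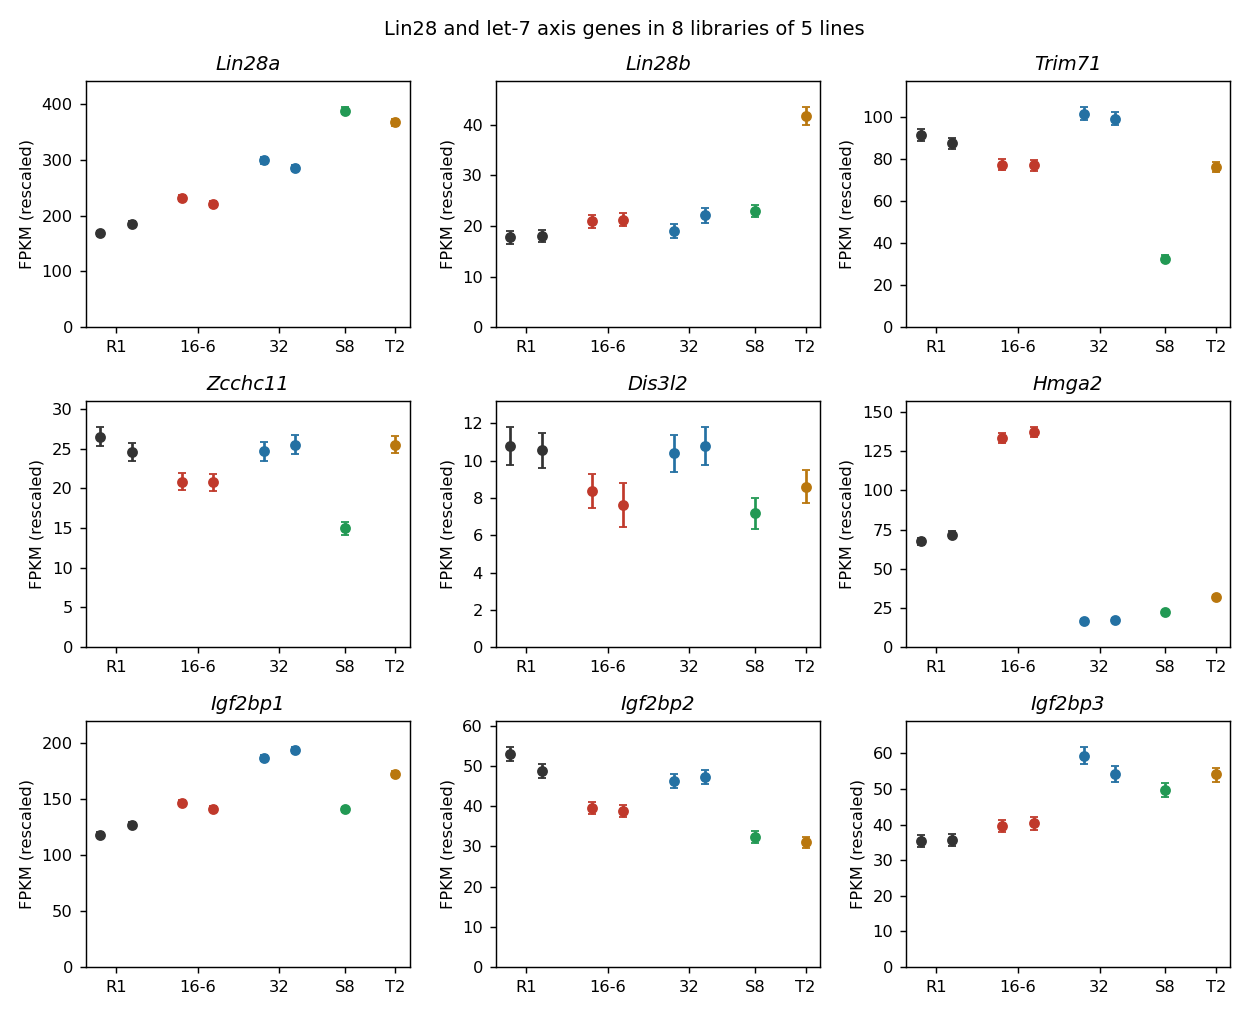
FPKM (rescaled, y axis from 0) of the 9 members in each of the 8 libraries, grouped by line on the x axis, with 1 point per library and bars for the confidence limits of Cufflinks. Lin28a was highest in S8 at 387.4, Lin28b in T2 at 41.7, and Hmga2 in 16-6 at 133.5 and 137.2.

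Zcchc11 (chr4:108132031-108232020), the uridylyl transferase, was lowest in S8 as deposited. Its level was 26.5 and 24.6 FPKM in R1, 20.8 and 20.8 in 16-6, 24.7 and 25.5 in 32, 15.0 in S8 and 25.5 in T2. R1, T2 and 32 overlapped, 16-6 lay below them and S8 below 16-6, at a log2 difference of −0.73 (SE 0.061) from R1. With the adjustment for length and GC, S8 was at −0.14 and 16-6 at −0.19. Dis3l2 (chr1:88600379-88946672), the exonuclease for tailed RNA, was the lowest member in every library. It had 10.8 and 10.6 FPKM in R1, 8.38 and 7.65 in 16-6, 10.4 and 10.8 in 32, 7.17 in S8 and 8.61 in T2. The confidence limits of each line overlapped with those of its neighbour in the order. The log2 difference of S8 from R1 was −0.52 (SE 0.074), and 16-6 was at −0.37 (SE 0.061).

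Hmga2 (chr10:119798331-119913991), an architectural chromatin protein of embryonic and mesenchymal cells and the best-known mammalian let-7 target, varied most among the members. Its level was 67.6 and 71.8 FPKM in R1, 133.5 and 137.2 in 16-6, 16.8 and 17.5 in 32, 22.1 in S8 and 32.0 in T2. The lines did not overlap, and 16-6 was 7.9 times 32. The log2 difference from R1 was 0.95 (SE 0.046) in 16-6, −1.96 (SE 0.046) in 32, −1.61 (SE 0.057) in S8 and −1.10 (SE 0.057) in T2. The range of its line means was 2.91 on the log2 scale, against 0.82 for the median of the tested genes, and the 8 other members ranged from 0.52 to 1.59. The order of the lines by Hmga2 (16-6, R1, T2, S8, 32) was also their order by summed fibroblast markers. Against R1, 6 of the 12 markers were called higher and 2 lower in 16-6 (median log2 difference 1.11; 7.11% of all tested genes called). In 32, 1 was called higher and 10 lower (median −3.23, 9.77% of all). In S8, 1 was called higher and 6 lower (median −1.07, 16.7% of all). In T2, 2 were called higher and 6 lower (median −0.79, 10.5% of all). The median of the list thus had the sign of the Hmga2 difference in each line. Single markers did not all follow the sum. The 2 called lower in 16-6 were Dcn (−2.63) and Lum (−2.72). Acta2 had 966 and 968 FPKM of the 16-6 sums, against 68.7 and 65.5 in R1. The part of feeder cells in the Hmga2 levels was not tested.

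**Figure D3:**
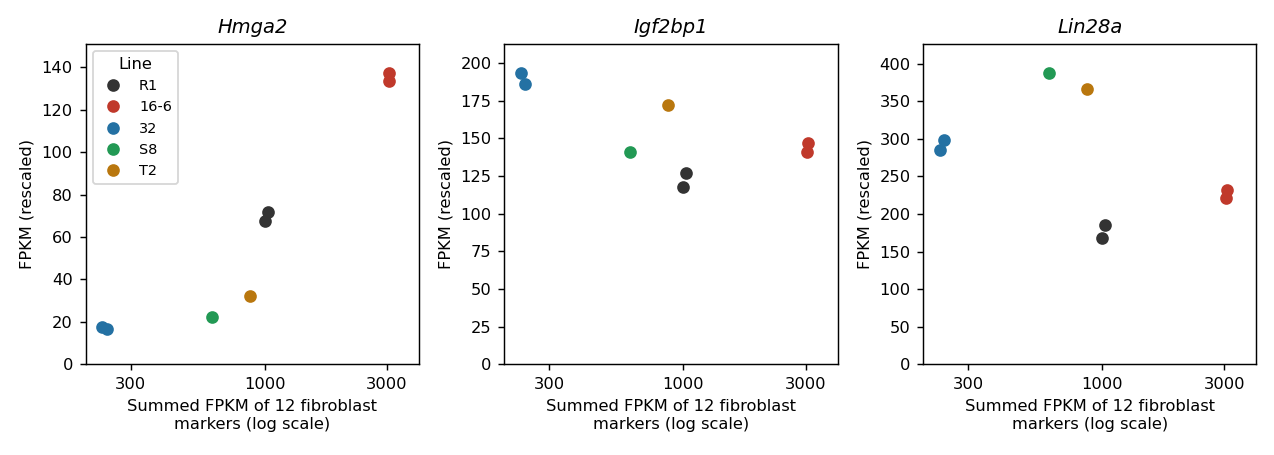
FPKM of Hmga2, Igf2bp1 and Lin28a (y axis, from 0) against the summed FPKM of 12 fibroblast markers (x axis, log scale) in the 8 libraries, coloured by line. Hmga2 runs from 16.8 FPKM in 32 to 137.2 in 16-6, the order of the lines by Hmga2 is that by marker sum, and Igf2bp1 and Lin28a do not follow that order.

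The 3 Igf2bp genes code for RNA-binding proteins that stabilise and localise target mRNAs. Igf2bp1 (chr11:95818478-95867258) had 118.0 and 126.7 FPKM in R1, 146.6 and 141.0 in 16-6, 186.2 and 193.3 in 32, 140.6 in S8 and 172.2 in T2. All iPSC libraries were above R1, and S8 and 16-6 had overlapping confidence limits. Igf2bp3 (chr6:49035217-49164953) had 35.5 and 35.6 FPKM in R1, 39.6 and 40.4 in 16-6, 59.4 and 54.2 in 32, 49.7 in S8 and 54.1 in T2. It too was lowest in R1 and highest in 32, though the confidence limits of 32 and T2 overlapped. Igf2bp2 (chr16:22059082-22163372) ran the other way. It had 52.9 and 48.7 FPKM in R1, 39.6 and 38.8 in 16-6, 46.2 and 47.3 in 32, 32.4 in S8 and 31.0 in T2. All iPSC libraries were below both R1 libraries, but the confidence limits of 32 and R1 overlapped.

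None of the Igf2bp differences from R1 reached 2-fold. In 32 the log2 difference was 0.63 (SE 0.051) for Igf2bp1, −0.12 (SE 0.05) for Igf2bp2 and 0.66 (SE 0.053) for Igf2bp3. In T2 it was 0.49 (SE 0.062), −0.70 (SE 0.062) and 0.59 (SE 0.065), respectively. The summed level of the 3 genes was 206.4 and 211.1 FPKM in R1 and 291.8 and 294.8 in 32, and between those in the other lines. Igf2bp2 made up 25.6% and 23.1% of that sum in R1, 17.5% and 17.6% in 16-6, 15.8% and 16.0% in 32, 14.5% in S8 and 12.0% in T2. Igf2bp1 was the largest share in every library, at 57.2% to 66.9%.

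The known let-7 targets among the members did not share 1 direction. Against R1, Lin28a, Lin28b, Igf2bp1 and Igf2bp3 had a difference above 0 in all 4 iPSC lines, Igf2bp2 was below 0 in all 4, and Hmga2 and Trim71 were above 0 in 1 and below in 3. These directions did not all hold by processing. After quantile normalization, Igf2bp1 in S8 was at −0.04 and Trim71 in 32, its only line above 0, was at 0.00. The 3 members with 4 let-7 matches were highest in 3 different lines, Lin28b in T2, Hmga2 in 16-6 and Igf2bp1 in 32. The ratio of Lin28a to the let-7 target Hmga2 was 1.74 and 1.61 in 16-6, 2.49 and 2.58 in R1, 11.5 in T2, 17.5 in S8, and 17.8 and 16.3 in 32.

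**Figure D4:**
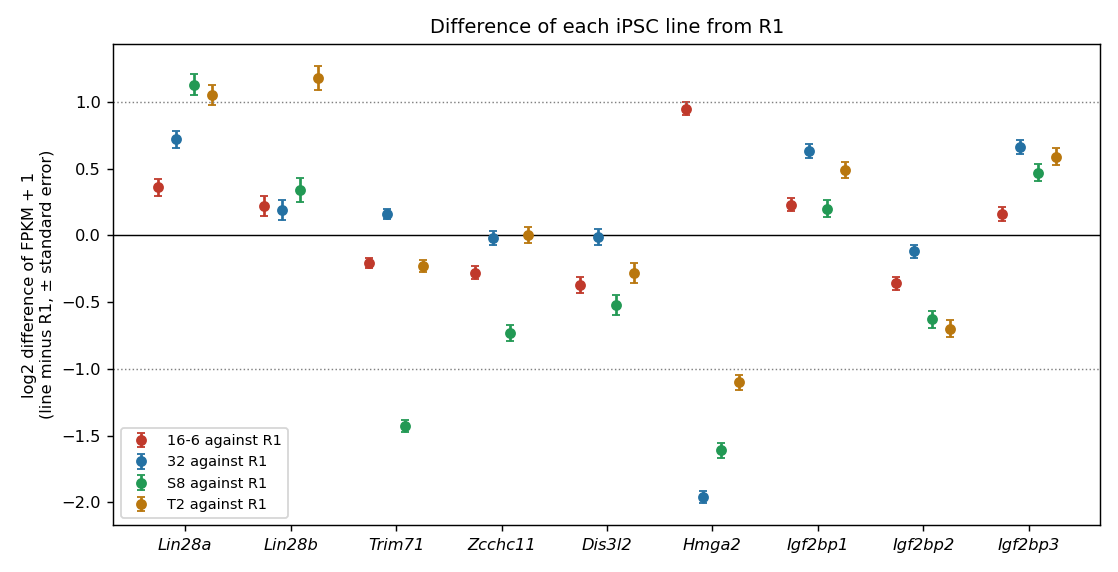
Difference of each iPSC line from R1 in log2(FPKM + 1) on the y axis for the 9 members on the x axis, with bars for the standard error of the fit and dotted lines at a 2-fold difference. Hmga2 lies at 0.95 in 16-6 and at −1.96 in 32, and Trim71 at −1.43 in S8.

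A gene was called when limma gave it a Benjamini-Hochberg adjusted p under 0.05 over all 13693 tested genes and a difference of at least 2-fold. All 9 members passed the filter on low values. The contrasts against R1 share the same R1 libraries and are not independent. In 16-6 against R1, 0 of 9 members were called by limma (7.11% of all tested genes), as none reached 2-fold, Hmga2 being nearest at 0.95. In 32 against R1, 1 was called, Hmga2, which was lower (9.77% of all). In S8 against R1, 3 were called, Lin28a higher and Trim71 and Hmga2 lower (16.7% of all). In T2 against R1, 3 were called, Lin28a and Lin28b higher and Hmga2 lower (10.5% of all), and without R1 replicate 1 there were 2, as Lin28a was lost. Between iPSC lines, Hmga2 was called higher in 16-6 than in 32 (1 of 9, 10.3% of all) and Trim71 lower in S8 than in T2 (1 of 9, 2.75% of all). As the members were chosen with these values known, nothing is read from the counts. The median difference of the members was 0.16 in 16-6, 0.16 in 32, −0.52 in S8 and 0.00 in T2, and that of all tested genes was −0.03, −0.02, −0.03 and −0.03.

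The S8 library differed from R1 by transcript length. The median log2 difference was 0.25 for tested genes of 1000 to 1500 bases and −0.79 for 481 genes of 8000 bases or more. Genes of 0.8 to 1.25 times the length of Trim71 and within 3 percentage points of its GC content had a median of 0.09 (279 genes), against −1.43 for Trim71 itself. For Hmga2 the genes of like length and GC had −0.22, against −1.61. For Zcchc11 they had −0.57, close to its own −0.73. Igf2bp1, the longest member at 8378 bases, was at 0.20 while genes like it were at −0.59, and Lin28b was at 0.34 with −0.51 for genes like it. The part of length in the S8 values was not tested beyond an adjustment for length and GC, under which Trim71 was at −1.64, Hmga2 at −1.37 and Lin28a at 1.18. Other members moved more under it: Zcchc11 from −0.73 to −0.14, Lin28b from 0.34 to 0.90, Igf2bp1 from 0.20 to 0.79 and Igf2bp3 from 0.47 to 0.78.

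**Figure D5:**
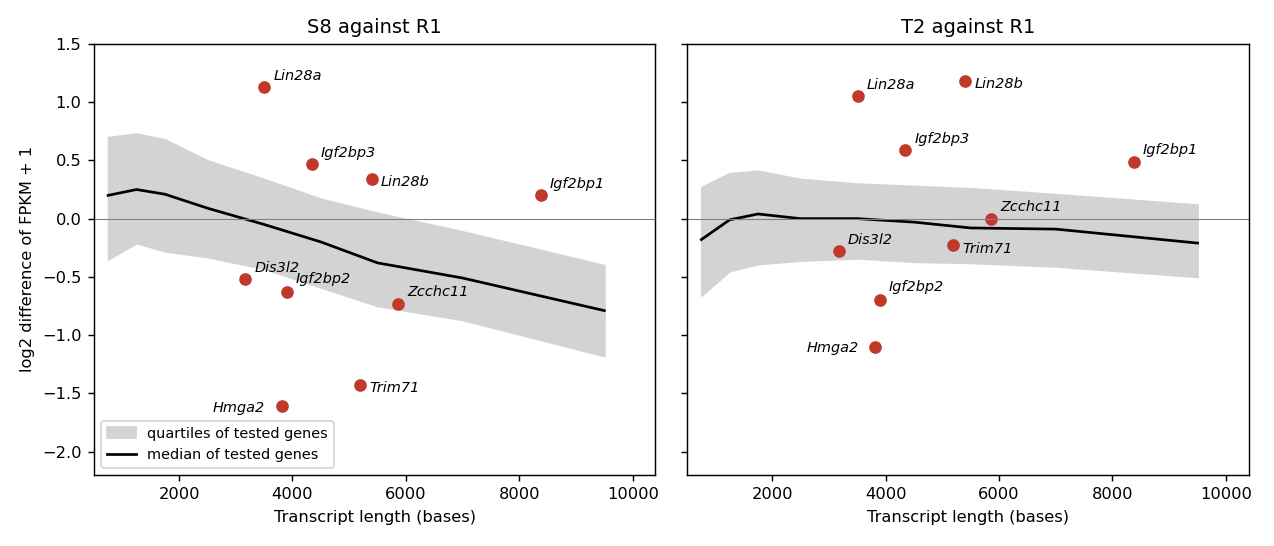
Difference from R1 in log2(FPKM + 1) on the y axis against transcript length in bases on the x axis for S8 (left) and T2 (right), with the median and quartiles of tested genes in 9 length bins (line and band, drawn at 1 length per bin) and the members as points. The S8 median falls from 0.25 at 1000 to 1500 bases to −0.79 at 8000 bases or more, and Trim71 (−1.43) and Hmga2 (−1.61) lie below the band.

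Genes with the most similar pattern were found by the root mean square difference of the 5 centred line means in log2(FPKM + 1), for members with a range of at least 1. For Lin28a they were Fzd9 (0.037), Llgl2 (0.039) and Cyb5b (0.052), and 32 genes were within 0.1. Trim71 was most like Birc6 (0.05), Nup98 (0.053) and Dmxl1 (0.056), with 14 genes within 0.1. Hmga2 was most like Wnt5a (0.103), Slc41a2 (0.108) and D030025P21Rik (0.135), with 0 genes within 0.1. Wnt5a, a secreted ligand of mesenchymal cells, had mean levels of 12.4 FPKM in R1, 20.3 in 16-6, 2.11 in 32, 3.32 in S8 and 4.5 in T2.

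The wider pathway was followed in 3 lists of other genes, of which 48 were tested. Calls among them numbered 2 in 16-6, 3 in 32, 9 in S8 and 2 in T2 against R1, 3 in 16-6 against 32, and 5 in S8 against T2. As shares of the 48 these are 4.17%, 6.25%, 18.8%, 4.17%, 6.25% and 10.4%, against 7.11%, 9.77%, 16.7%, 10.5%, 10.3% and 2.75% of all tested genes. In the list of uridylation and precursor decay (11 genes tested), 1 gene was called. Hnrnpa1, an RNA-binding protein that also binds microRNA precursors, rose in S8 and T2. It had 212 and 220 FPKM in R1, 236 and 213 in 16-6, 266 and 236 in 32, 483 in S8 and 436 in T2. Its log2 difference from R1 was 1.16 (SE 0.1, adjusted p = 0.000501 by limma) in S8 and 1.01 (SE 0.1, adjusted p = 0.00121 by limma) in T2. Hnrnpa1 has processed pseudogenes that could share reads, so its level is uncertain. Zcchc6, the second uridylyl transferase for let-7 (also called TUT7), was not called in any line. It had 14.1 and 13.7 FPKM in R1 and 6.65 in S8, a log2 difference of −0.96 (SE 0.058).

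Among microRNA processing and effector genes (15 tested), 4 (26.7%, against 16.7% of all tested genes) were called in S8 against R1, and in the other lines no gene of the list differed from R1 by 2-fold. Eif2c2 codes for Argonaute 2, the slicing effector that carries mature let-7. It fell from 44.2 and 44.2 FPKM in R1 to 11.3 in S8, and had 47.3 and 50.5 in 16-6, 53.9 and 55.7 in 32 and 35.3 in T2. Its log2 difference in S8 was −1.87 (SE 0.056, adjusted p = 6.5e-05 by limma). Eif2c3 (Argonaute 3) fell from 5.35 and 5.27 FPKM to 0.843, at −1.78 (SE 0.1, adjusted p = 0.000169 by limma), and Tnrc6b, a GW182 partner of Argonaute, fell by 1.00 on the log2 scale. Tarbp2, a double-stranded RNA-binding partner of Dicer, rose from 34.2 and 44.4 FPKM to 97.6, at 1.30 (SE 0.15, adjusted p = 0.00114 by limma). Dicer1, the nuclease that cuts let-7 precursors, was not called, with 33.2 and 32.9 FPKM in R1 and 23.6 in S8. The median of this list in S8 against R1 was −0.35, against −0.03 for all tested genes. With the adjustment for length and GC, the calls in S8 over the 3 lists were 3 in place of 9. The differences of the single genes above are given without that adjustment, so the part of length in them remains unknown.

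Among 22 other let-7 targets, Thbs1, Ccnd2 and Hmga1 had the largest called differences. Thbs1, a secreted matrix glycoprotein, had 109 and 115 FPKM in R1, 575 and 585 in 16-6, 35.6 and 36.6 in 32, 38.3 in S8 and 107 in T2. It rose in 16-6 by 2.36 (SE 0.041, adjusted p = 2.8e-05 by limma) and had a fall in 32 (−1.61) and in S8 (−1.53). Ccnd2, a G1 cyclin, had 34.5 and 36.5 FPKM in R1, 85.5 and 82.0 in 16-6, 9.66 and 9.7 in 32, 17.1 in S8 and 33.7 in T2. Its log2 difference was 1.22 (SE 0.046, adjusted p = 0.000122 by limma) in 16-6 and −1.77 (SE 0.046, adjusted p = 2.2e-05 by limma) in 32. Thus Thbs1 and Ccnd2 were, like Hmga2, highest in 16-6 and lowest in 32, the lines with the highest and the lowest sum of fibroblast markers (3065.6 and 232.0 FPKM), and the part of feeder cells in this was not tested.

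Hmga1, the paralog of Hmga2, went the other way in S8 and T2. It had 64.4 and 84.2 FPKM in R1, 79.4 and 90.4 in 16-6, 114 and 97.5 in 32, 227 in S8 and 166 in T2. It rose by 1.61 (SE 0.19, adjusted p = 0.00125 by limma) in S8 and 1.16 (SE 0.19, adjusted p = 0.00523 by limma) in T2. Hmga1 also has pseudogenes that could share reads. The T2 calls of Hmga1 and Hnrnpa1 rested on R1 replicate 1, since 0 list genes were called in T2 without it. Myc, a let-7 target and also one of the reprogramming factors, was called in no line, with 28.5 and 28.9 FPKM in R1 and 27.5 to 31.1 in the iPSC libraries.

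The let-7 genes themselves could not be followed. Of 12 let-7 family genes in the files, 7 were at 0 in every library, and the remaining values were isolated, such as 103 FPKM for Mirlet7i in the first R1 library and 0 in the second. Mirlet7e was listed at 65.8 and 65.0 FPKM in 16-6 and at 0 in all other libraries. The libraries were made from oligo(dT)-selected RNA in fragments longer than mature microRNAs and thus do not measure mature let-7.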

How the data were processed

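RNA of the 8 libraries was sequenced on the Illumina platform after oligo(dT) selection. The authors aligned read pairs with TopHat 2.0.4 (mm9, UCSC gene models) and discarded reads that did not map uniquely. The deposited FPKM and their confidence limits came from Cufflinks (2.0.0 in the submitters' processing notes, another version in the paper's methods). Cufflinks options were not given in the sources used here. The deposited FPKM summed to 1.14408e+10 to 1.60283e+10 per library and were divided by 12725.7, which set the median library total to 1000000. Taking the gap between a value and its upper limit as 2 counting errors, the ratio of 2 × FPKM to that gap, squared, gave the fragments (15.5 to 16.7 × 1000000 per library). This does not follow the larger read numbers listed for S8 and T2. It treats the whole gap as counting error, which need not hold. For Dis3l2 in 16-6 it gave 332 fragments at 8.38 FPKM and 171 at 7.65 FPKM. Genes with at least 1 FPKM in at least 1 library (13693 of 22878 rows) were fitted as log2(FPKM + 1) in limma 3.58.1 (lmFit, eBayes with trend, R 4.3.3), which understates the change of low genes. All 8 libraries entered as 5 groups with 3 residual degrees of freedom, so S8 and T2 (1 library each) were assumed to vary like the replicated lines. The study calls its replicates biological without saying whether they were separate cultures, so p-values measure only the spread between these libraries. Members and lists were chosen with earlier results of these data known. Named list genes were the 3 per list with the largest called difference from R1, plus Zcchc6, Dicer1 and Myc. Tnrc6b and the single marker genes given with values, such as Zfp42 and Esrrb, were named after their values were seen. Replicate numbers did not pair the lines: replicate differences correlated at −0.097, 0.001 and 0.028. The fit was tested on simulated data. Sequences are from RefSeq (GRCm38.p6) for microRNAs and from mm9 with GENCODE vM1 for UTRs, and 94.7% of tested genes had a length. Hras was not matched. The genes most like Lin28b are not reported here. Python 3.11.15, pandas 2.3.3 and numpy 2.4.6 were used.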

Additional observations from a re-analysis of the deposited data

Results flagged for a closer look

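Hmga2 and Trim71 were flagged because every library of 16-6 lay on one side of both R1 libraries and every library of 32 on the other. The share of all tested genes that meet this rule was not counted, so how common it is remains unknown. For Trim71 the log2 differences from R1 were only −0.21 in 16-6 and 0.16 in 32, and the latter was 0.00 after quantile normalization. The difference between these contrasts is 16-6 against 32, as both share the R1 libraries. On the log2 scale it was 2.91 (SE 0.046) for Hmga2, higher in 16-6 and past the limits for a call, and −0.37 (SE 0.038) for Trim71, lower in 16-6 and under 2-fold. The genes were chosen with these values known, so this is a description.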

How the results depend on the processing

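The calls were repeated with a pseudocount of 0.1, no filter, a filter of at least 1 FPKM in every library, quantile normalization, median of ratios scaling, no trend, a replicate block, each replicate left out and, chosen after seeing the data, an adjustment for length and GC. Of the counts of calls, 157 stayed within 1.5 times and 5 moved. Members called in 16-6 against R1 became 1 with median of ratios scaling and 1 with the adjustment for length and GC, where Hmga2 was at 1.05 and 1.00. List genes called with that adjustment were 3 in S8 and 1 in T2 against R1. Leaving out a replicate gave 0 to 3 list genes called in T2 against R1, 7 to 9 in S8 and 2 to 3 in 32, and 2 to 3 members in T2. Lin28a lost its call in S8 (0.75) and T2 (0.98) with quantile normalization, and in T2 without R1 replicate 1 (0.98). The direction of 17 small member differences turned. With quantile normalization, Lin28a in S8 against T2 was −0.23, Lin28b in 16-6 against 32 −0.01, Dis3l2 in 32 against R1 0.15, Igf2bp1 in S8 against R1 −0.04 and Igf2bp2 in S8 against T2 0.00. With median of ratios scaling, Zcchc11 was 0.05 in 32 and 0.03 in T2 against R1, and Dis3l2 was 0.06 in 32. With the adjustment for length and GC, Zcchc11 in T2 was 0.16, Dis3l2 in 32 0.04, and Igf2bp1 and Igf2bp3 in S8 against T2 were 0.21 and 0.10. Without R1 replicate 1, Zcchc11 was 0.03 in 32 and 0.05 in T2 (−0.08 and −0.05 without R1 replicate 2), and Dis3l2 was 0.00 in 32. Without 32 replicate 1, Dis3l2 was 0.01 and Lin28b in 16-6 against 32 was −0.07 (0.14 without 32 replicate 2). The cause was not tested. Over all tested genes, a pseudocount of 0.1 raised the calls from 974 to 1690 in 16-6, from 1338 to 2258 in 32, from 1437 to 2198 in T2 and from 376 to 794 in S8 against T2. A filter of at least 1 FPKM in every library left 565, 740 and 940 in the first 3 and 859 of 1412 in 16-6 against 32. Quantile normalization moved the split in 32 from 211 higher and 1127 lower to 413 and 731, and in 16-6 against 32 from 1263 and 149 to 974 and 260. The adjustment for length and GC moved it in S8 from 949 and 1334 to 495 and 1224, and the calls in S8 against T2 from 376 to 221. The replicate numbers pair no samples. With a replicate block on the 6 libraries of R1, 16-6 and 32, members called were 0, 1 and 1, and calls over all genes were 965, 1339 and 1410.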
